A study of Mus musculus with 12 samples.

Results

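The genes described here are the 3 measured CITED coregulator genes of the mouse, Cited1, Cited2 and Cited4, and the genes of the 2 acetyltransferases that CITED proteins bind, Crebbp (CBP) and Ep300 (p300). These 5 of the 56941 gene IDs in the count table were taken by symbol through the GENCODE M21 annotation, and each symbol belonged to 1 ID, so no choice between IDs by count was needed. The group was proposed because Cited1 was already known as one of the largest increases under compression in these data, so Cited1 is described without a test. The other members came with the family name and were tested. The membership as a whole was still set with earlier results of these data known, so these tests are not fully independent of the data. Of the 5 members 4 had counts and passed the filter on low counts, and Cited4 had 0 counts throughout.

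RNA was sequenced from RAW264.7 cells, an established murine macrophage line, grown on a porous cell culture insert. Compressed macrophages (n = 6) lay for 24 h under an agarose cushion carrying a printed weight that applied 0.14 kPa, a load chosen by the study to model the stress inside a growing tumor. Control macrophages (n = 6) lay for the same time under the cushion alone, so the cushion is common to both groups, and both were kept in the same medium and a standard incubator. The labels number the libraries 1 to 6 in each group and leave unsaid whether separate cultures were used, so a p-value here speaks only of the spread among these libraries, which may be technical.

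CITED proteins do not bind DNA themselves. Through an acidic stretch near their C-terminus they hold a zinc finger domain of CBP and p300, and so bring these acetyltransferases to a transcription factor or keep a factor away from them. CITED2 is best known as a competitor of the hypoxia-inducible factor HIF-1 for that domain and is itself a HIF target gene, and in mouse macrophages it is known to restrain inflammatory genes. CBP and p300 acetylate histones at enhancers and promoters and serve many signal-dependent factors of the macrophage, NF-kB, STAT and SMAD proteins among them.

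The stretch that gives the CITED family its name is shown first because it is what the 3 genes share. The lines give 114 coding bases of each gene, 5′ to 3′ on the coding strand, from GENCODE M21 transcripts placed on GRCm38, and capitals mark the 64 bases that are identical in all 3 genes. The positions are chrX:102247485-102247598 on the minus strand for Cited1, chr10:17724593-17724706 on the plus strand for Cited2 and chr4:120667189-120667302 on the plus strand for Cited4. Each lies within 1 exon, in the coding sequence and close to its end.
Cited1: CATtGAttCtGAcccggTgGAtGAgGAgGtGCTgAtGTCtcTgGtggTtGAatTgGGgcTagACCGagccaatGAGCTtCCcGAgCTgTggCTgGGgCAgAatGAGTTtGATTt
Cited2: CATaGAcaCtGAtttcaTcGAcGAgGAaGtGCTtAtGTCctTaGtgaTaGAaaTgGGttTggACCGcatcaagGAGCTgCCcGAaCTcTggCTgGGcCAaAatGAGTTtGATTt
Cited4: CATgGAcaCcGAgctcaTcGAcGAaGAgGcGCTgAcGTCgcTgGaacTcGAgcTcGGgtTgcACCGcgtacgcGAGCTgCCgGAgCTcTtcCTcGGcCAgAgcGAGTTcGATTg

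Cited2 shared 84 of these 114 bases with Cited1 and 78 with Cited4, and Cited1 shared 73 with Cited4. The longest run of identical bases between whole transcripts was 17 between Cited1 and Cited2, 11 between Cited4 and either of the others, and 30 between Crebbp and Ep300. Reads longer than these runs are not identical between members, although the read length and the treatment of reads with several matches were not given in the sources used here.

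The libraries held 33460807 to 39103987 counts in compressed macrophages and 37948795 to 40463545 in controls. Compressed replicate 6 stood apart. Its level fell with transcript length by 0.241 on the log2 scale per doubling of length, against slopes of 0.009 to 0.065 in the other compressed libraries and -0.006 to 0.042 in controls. Crebbp and Ep300 have long transcripts, so their main levels, fold changes and ratios are given with and without this library. The 8 macrophage markers summed to 7625 to 9614 CPM (counts per 1000000 of the TMM-scaled library total) in compressed libraries and 6156 to 6608 CPM in controls. Cited1 was first described in melanocytes, and of 6 melanocyte markers none passed the filter, with sums of 0.0609 to 0.161 CPM in compressed libraries and 0.0243 to 0.301 CPM in controls, and Mlana, Tyr, Dct and Tyrp1 were at 0 in all 12 libraries. None of the 5 fibroblast, 5 epithelial, 4 T cell and 4 B cell markers passed the filter, and 1 of 4 endothelial markers did.

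Cited1 (ENSMUSG00000051159, chrX:102247381-102252181, minus strand, GRCm38) encodes a coregulator of SMAD and estrogen receptor transcription. It was close to absent from control macrophages and readily counted in compressed ones. The 6 compressed libraries held 162, 134, 85, 144, 147 and 239 counts, and the 6 control libraries held 4, 6, 2, 3, 5 and 1 counts. The lowest compressed library, replicate 3, held 85 counts where the highest control, replicate 2, held 6, and the groups did not overlap. Scaled to library size, the level was 4.33 ± 1.35 CPM in compressed macrophages and 0.0873 ± 0.0457 CPM in controls (SD, n = 6 each). In bulk RNA, a few cells with much Cited1 and all cells with little of it cannot be told apart.

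The summed counts of Cited1, 911 in compressed and 21 in control libraries, came to a 49.1-fold ratio once scaled to effective library size, and its exact 95% interval, 31.9 to 79.7, covers counting error only. The fitted log2 fold change was 5.57 (SE 0.33, 95% interval 4.87 to 6.27), and it ranked number 5 among the 15001 genes tested. Because Cited1 was chosen for its large increase, this rank and the distance of the interval from 0 are description only. Without compressed replicate 6, which held the most counts, the log2 fold change was 5.42. Among themselves the compressed libraries ran from 2.29 CPM in replicate 3 to 6.34 CPM in replicate 6. Even in compressed macrophages Cited1 was no abundant transcript. At 3.97 ± 1.24 CPM per kilobase of transcript it lay in the top 62.4% of 14657 genes ranked by level, and at 0.0801 ± 0.0419 CPM per kilobase in controls in the top 98.3%.

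Cited2 (ENSMUSG00000039910, chr10:17723218-17725674, plus strand, GRCm38) was the predominant CITED gene in both groups and rose under compression. Its level was 1041, 983, 991, 1075, 1081 and 1184 CPM in compressed libraries 1 to 6 and 652.5, 663, 686, 691, 719 and 687 CPM in control libraries 1 to 6. Every compressed library lay above every control, and the gap between the lowest compressed and the highest control library was wider than the whole range of the controls. The means were 1059 ± 73.6 CPM in compressed and 683 ± 23.3 CPM in control macrophages (SD, n = 6 each).

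The increase in Cited2 was 1.55-fold (95% interval 1.44 to 1.68), a log2 fold change of 0.63 (SE 0.05) with an adjusted p of 3.23e-07 by edgeR's quasi-likelihood test with Benjamini-Hochberg adjustment over all genes. Compression changed a large part of the transcriptome, and this sets the scale for any 1 gene. By the same test 46.4% of the 15001 genes were called, 24.5% higher and 21.9% lower, and in 33.6% the libraries of the groups did not overlap, 16.5% with all compressed libraries higher. Of the 3 members with a test, Cited2 was the only one called. By log2 fold change it ranked number 1666 of all genes tested, well behind Cited1. Without compressed replicate 6 its log2 fold change was 0.60 (SE 0.03, adjusted p = 4.49e-12 by edgeR).

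Per kilobase of transcript, Cited2 stood at 439 ± 30.5 CPM in compressed macrophages and 283 ± 9.65 CPM in controls, rank 159 and rank 202 of 14657 genes. Cited1 made up 0.508 to 1.17% of the CITED transcripts per kilobase in compressed libraries and 0.00829 to 0.0486% in controls. The far larger fold change of Cited1 therefore left Cited2 with nearly all CITED transcripts in every library. Within libraries, the ratio of Cited1 to Cited2 was 35.5-fold higher in compressed macrophages, a description that follows from how Cited1 was chosen.

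Cited4 (ENSMUSG00000070803, chr4:120666572-120667820, plus strand, GRCm38) encodes a coactivator of AP-2 factors best known from epithelial and heart tissue. It had 0 counts in each of the 6 compressed and each of the 6 control libraries. With a floor of 3 counts over a group, its level was at most 0.0142 CPM in compressed and 0.0126 CPM in control macrophages. Per kilobase, Cited2 was at least 38570-fold above that floor in compressed macrophages and at least 28160-fold in controls. A difference in Cited4 between the groups was not detectable at this depth.

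Promoter bases of Cited1 and Cited2 are printed because these are the 2 members whose groups did not overlap and because CITED2 is a known HIF target. The sequences are RefSeq's upstream windows on GRCm38.p6, 5′ to 3′ on the strand of the gene, with capitals on matches to ACGTG or GCGTG, the core letters of HIF sites, on either strand. The Cited1 window is chrX:102252182-102252431 (minus strand, 250 bases) and the Cited2 window is chr10:17722978-17723217 (plus strand, 240 bases, the last 10 of the window being left out because GENCODE places them inside the gene).
Cited1 promoter: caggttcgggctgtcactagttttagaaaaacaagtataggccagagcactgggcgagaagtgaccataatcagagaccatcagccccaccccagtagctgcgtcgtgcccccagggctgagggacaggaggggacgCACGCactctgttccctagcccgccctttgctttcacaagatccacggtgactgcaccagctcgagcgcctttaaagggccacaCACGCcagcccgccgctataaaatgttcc
Cited2 promoter: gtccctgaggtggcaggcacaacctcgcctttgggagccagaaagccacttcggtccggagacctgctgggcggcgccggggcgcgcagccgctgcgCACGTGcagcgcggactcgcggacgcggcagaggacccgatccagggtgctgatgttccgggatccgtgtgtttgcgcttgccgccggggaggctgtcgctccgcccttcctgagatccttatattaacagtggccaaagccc

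The Cited1 window held 2 matches to GCGTG, both on the opposite strand. The Cited2 window held 1 palindrome, CACGTG, which is ACGTG read on both strands and so counts as 2 overlapping matches. Cited4 had 1 match to GCGTG, and Crebbp and Ep300 had 0 in the same 250 bases. Of the 3 starts that RefSeq lists for Cited1 the others held 1 and 0 matches. Such letters are common, with ACGTG in 16.6%, GCGTG in 28.2% and either in 38.6% of 27025 mouse promoters of this length, and a match is not a site. The full cyclic AMP response element TGACGTCA, which 1.62% of promoters held, was found at none of the members.

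Crebbp (ENSMUSG00000022521, chr16:4081328-4213997, minus strand, GRCm38) encodes CBP, first found as a partner of phosphorylated CREB, and did not pass the test. Compressed libraries 1 to 6 had 48.4, 40.9, 58.1, 60.75, 57.6 and 35.5 CPM, and control libraries 1 to 6 had 62.4, 53.5, 49.1, 55.3, 50.65 and 52.6 CPM. The groups overlapped, since compressed replicates 1, 2 and 6 were the lowest of all libraries and compressed replicates 3 to 5 lay above every control except replicate 1. The means were 50.2 ± 10.3 CPM in compressed and 53.9 ± 4.70 CPM in control macrophages (SD, n = 6 each). The log2 fold change was -0.10 (SE 0.12, 95% interval -0.37 to 0.16) and was not called (adjusted p = 0.518 by edgeR). The interval spans 0.776- to 1.12-fold.

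Ep300 (ENSMUSG00000055024, chr15:81585351-81652077, plus strand, GRCm38) encodes p300, the closest relative of CBP, and did not pass the test either. Its level was 135, 128, 167, 174, 164 and 48.3 CPM in compressed libraries 1 to 6 and 164, 145, 139, 139.5, 135 and 139 CPM in control libraries 1 to 6. Compressed replicate 6 was far below all other libraries, and compressed replicates 3 and 4 were above the highest control, replicate 1. The means were 136 ± 46.8 CPM in compressed and 144 ± 10.7 CPM in control macrophages (SD, n = 6 each). The log2 fold change was -0.08 (SE 0.23, 95% interval -0.57 to 0.41, adjusted p = 0.803 by edgeR), an interval of 0.675- to 1.33-fold.

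**Figure D1:**
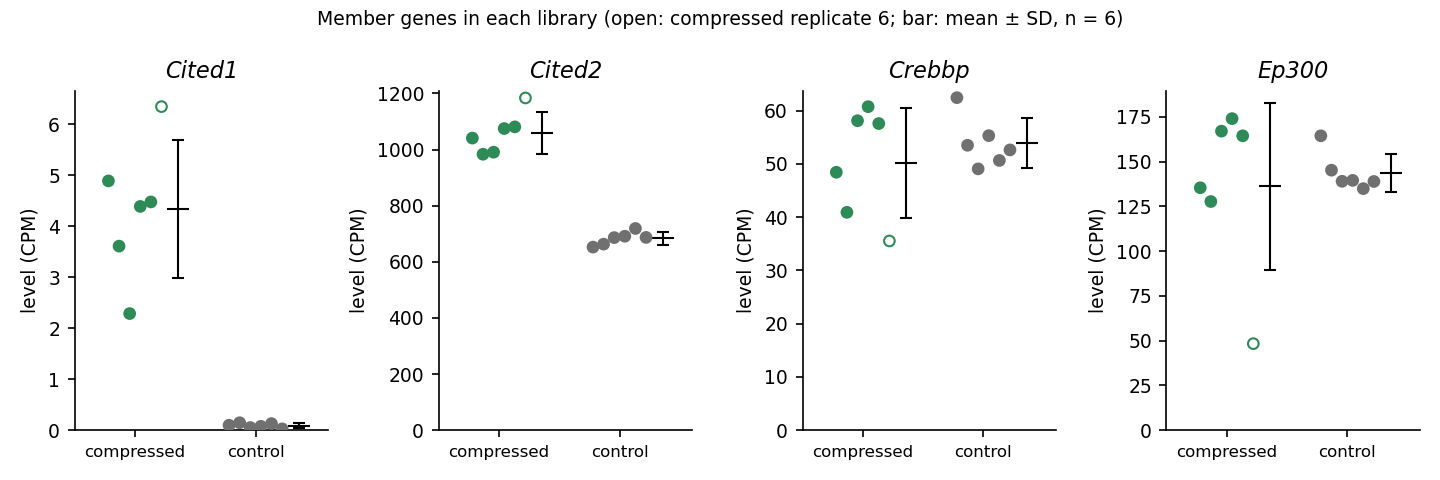
Level (CPM, y axes from 0) of Cited1, Cited2, Crebbp and Ep300 in each of the 6 compressed and 6 control libraries (points; open point, compressed replicate 6), with the mean and SD of each group as a bar. Cited1 and Cited2 do not overlap between the groups, whereas Crebbp and Ep300 do, and compressed replicate 6 lies lowest for Ep300 at 48.3 CPM.

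Compressed replicate 6 widened the spread of both acetyltransferase genes. Without it, Ep300 averaged 154 ± 20.7 CPM in the remaining 5 compressed libraries and its log2 fold change was 0.09 (95% interval -0.05 to 0.24, adjusted p = 0.233 by edgeR), so the direction turned and the gene remained uncalled. Crebbp averaged 53.1 ± 8.28 CPM in those 5 libraries, with a log2 fold change of -0.02 (95% interval -0.19 to 0.14, adjusted p = 0.799 by edgeR). With the trend of each library with transcript length removed from all 12 libraries, the values were -0.11 for Ep300 (adjusted p = 0.388 by edgeR) and -0.06 for Crebbp (adjusted p = 0.565 by edgeR), in a fit that called 29.3% of all genes higher and 27.2% lower. A p that misses the threshold does not show equal levels, and without replicate 6 the interval of Ep300 still reached a log2 increase of 0.24.

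**Figure D2:**
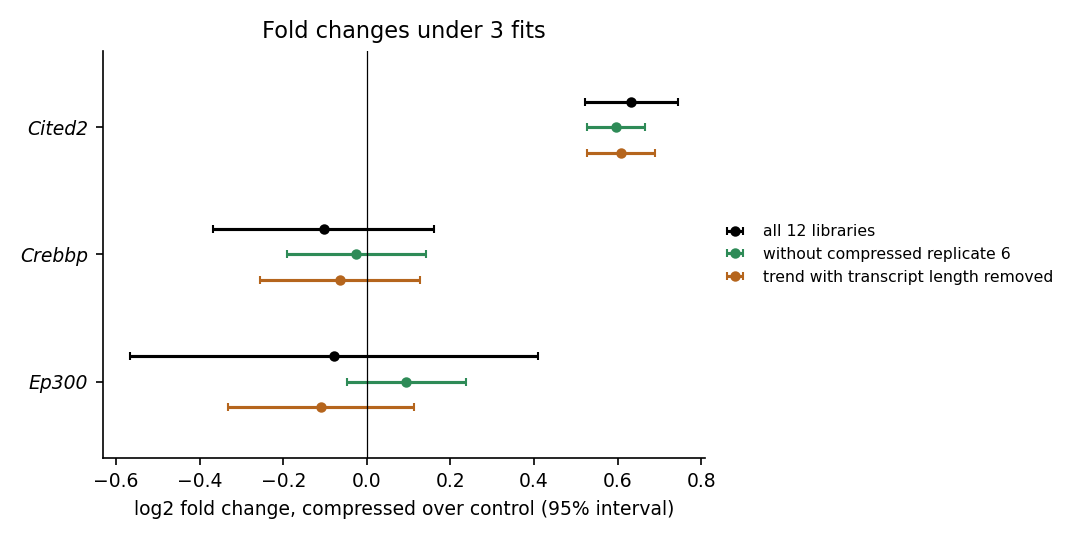
Log2 fold change, compressed over control, of Cited2, Crebbp and Ep300 (x axis; points with 95% intervals) from edgeR fits to all 12 libraries, without compressed replicate 6 and with the trend with transcript length removed. Cited2 stays between 0.60 and 0.63 in all 3 fits, and the intervals of Crebbp and Ep300 include 0 in each.

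The members followed the length trend of compressed replicate 6 to different extents. Against the median of the other compressed libraries, the median gene of 1 to 2 kb was 0.40 higher in replicate 6 on the log2 scale, and Cited1, with a transcript of 1090 bases, was 0.53 higher. Cited2, with 2411 bases, was 0.19 higher where the median gene of 2 to 4 kb was at -0.04. Among 605 genes of 8 kb or more the median was -1.05, and Crebbp (10820 bases) at -0.70 lay at the 68.4th percentile of them while Ep300 (9566 bases) at -1.77 lay at the 7.11th. Both acetyltransferase transcripts were thus low in this library, Ep300 more than most genes of its length. The part of transcript length in the low Ep300 value was not tested beyond these measurements.

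**Figure D3:**
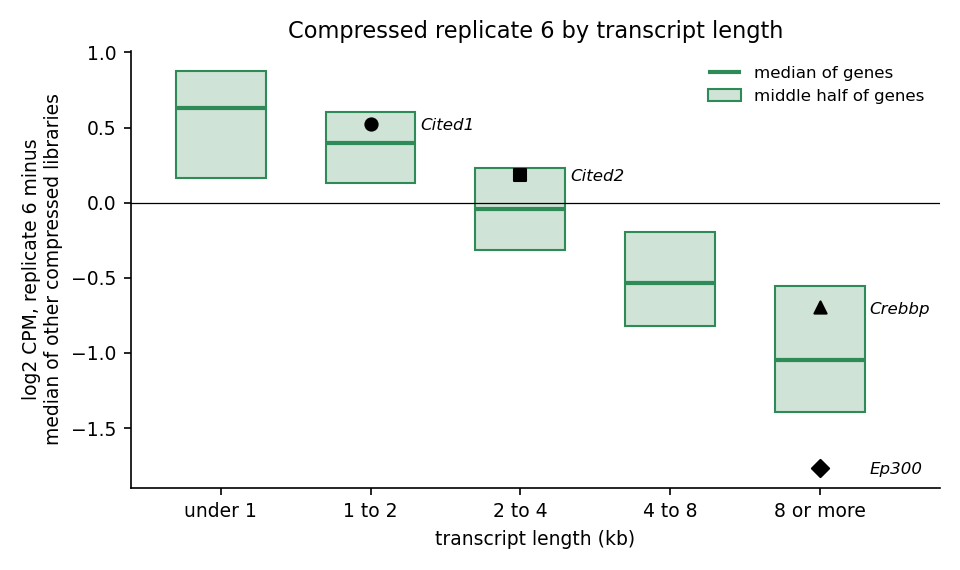
Level in compressed replicate 6 minus the median of the other compressed libraries (y axis, log2 CPM) by transcript length (x axis, kb), with the median and the interquartile range of genes in each length class as lines and boxes and the 4 measured members as symbols. The class medians run from 0.63 under 1 kb to -1.05 at 8 kb or more, and Ep300 lies below the box of its class.

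Ratios within a library do not depend on how libraries are scaled. A trend with transcript length, as in compressed replicate 6, does not cancel in a ratio of genes of unlike length. Cited2 has 2411 bases, Crebbp 10820 and Ep300 9566, and no ratio was computed with that trend removed. The ratio of Cited2 to the sum of Crebbp and Ep300, in counts per kilobase, was 23.2, 23.8, 18, 18.7, 19.9 and 58.9 in compressed libraries 1 to 6 and 11.8, 13.7, 14.9, 14.55, 15.9 and 14.7 in control libraries 1 to 6. All 6 compressed libraries were above all 6 controls. On the log2 scale the ratio averaged 4.62 ± 0.64 in compressed and 3.83 ± 0.15 in control macrophages, a difference of 0.79 or 1.73-fold (two-sided exact permutation test, p = 0.00216, the smallest that 6 against 6 libraries allow, and 0.00433 adjusted over 2 ratios). Without compressed replicate 6 the difference was 0.54 or 1.45-fold (exact permutation test, adjusted p = 0.00866). Cited2 alone was 1.55-fold higher over the same 12 libraries.

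The ratio of Crebbp to Ep300 was 0.316, 0.283, 0.308, 0.309, 0.310 and 0.650 in compressed libraries and 0.336, 0.326, 0.312, 0.3505, 0.332 and 0.335 in controls. Per kilobase, Ep300 was above Crebbp in every library. Over all 12 libraries the groups differed by 0.06 on the log2 scale (exact permutation test, p = 0.998). Compressed replicates 1 to 5 lay within 0.283 to 0.316 and controls within 0.312 to 0.351, ranges that barely overlapped, and without replicate 6 the ratio was 0.919-fold that of controls, a log2 difference of -0.12 (exact permutation test, adjusted p = 0.00866). The sign and the call of this ratio therefore rested on 1 library.

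**Figure D4:**
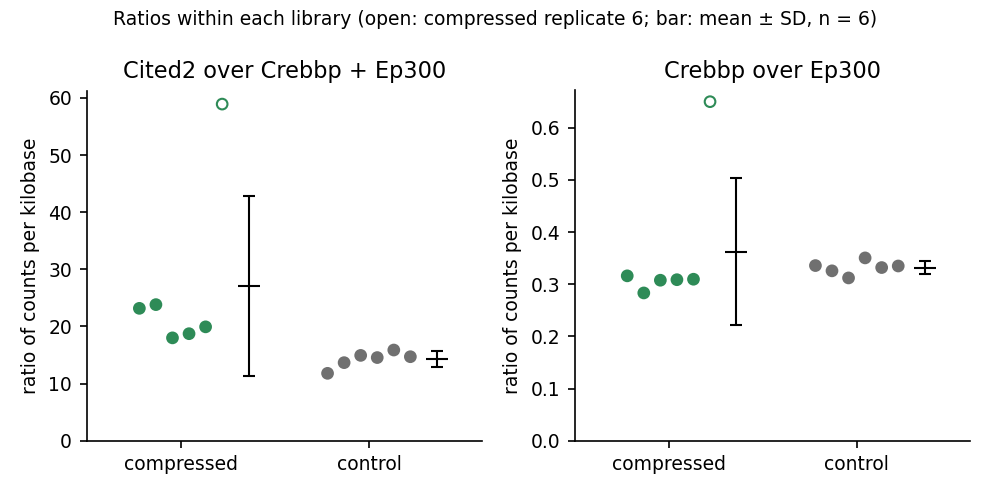
Ratio of Cited2 to Crebbp plus Ep300 (left) and of Crebbp to Ep300 (right), in counts per kilobase of transcript (y axes from 0), in each of the 6 compressed and 6 control libraries (points; open point, compressed replicate 6), with the mean and SD as a bar. In the left panel all compressed libraries lie above the highest control at 15.9, and in the right panel replicate 6 stands alone at 0.650.

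Genes next to the members showed no common direction. Beside Cited1, the lysine deacetylase gene Hdac8 had a log2 fold change of 0.02 (adjusted p = 0.846 by edgeR) and the gene model Gm14859 one of 0.06 (adjusted p = 0.853), with values of 0.09 and -0.03 without compressed replicate 6. Beside Cited2, Txlnb rose at a very low level, 0.636 ± 0.195 CPM in compressed and 0.206 ± 0.0559 CPM in control macrophages (log2 fold change 1.604, adjusted p = 1.43e-04 by edgeR), whereas the gene model Gm47761 was not called at -0.53 (adjusted p = 0.0611 by edgeR). The neighbours of Cited4 both fell. These were Ctps, a CTP synthase gene, with a log2 fold change of -0.42 (adjusted p = 2.32e-06 by edgeR), and Nfyc, a subunit of the CCAAT-binding factor NF-Y, with -0.43 (adjusted p = 1.11e-06). Beside Crebbp, the mitochondrial chaperone gene Trap1 fell by 0.22 (adjusted p = 6.29e-04 by edgeR) and the adenylyl cyclase gene Adcy9 was not called at 0.17 (adjusted p = 0.671), but was at 0.38 and called when compressed replicate 6 was left out (adjusted p = 0.00141 by edgeR). Beside Ep300, L3mbtl2 fell by 0.45 (adjusted p = 5.87e-05) and 1110025M09Rik rose by 0.44 (adjusted p = 0.0349 by edgeR), a call lost in the fit without that library (0.38, adjusted p = 0.0616). A same-strand gene model within Crebbp, Gm37186, drew 32 counts in compressed and 46 in control libraries, and the small RNA genes within Ep300 drew at most 7 counts in all.

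HIF-1 is the factor with which CITED2 competes, and its pathway was examined by a list of its subunits and of the hydroxylases that limit them. Of 10 genes 8 were measured and 2, Hif3a and Arnt2, were below the filter. Of those measured 4 rose, 0 fell (0 also at an unadjusted p under 0.05 and by DESeq2) and 4 were not called by edgeR, with a median log2 fold change of 0.30 beside 0.02 over all genes tested, of which 24.5% were called higher and 21.9% lower. With library size alone 1 was lower, and with the length trend removed 2 were. When compressed replicate 6 was left out, 9 passed the filter, 7 rose and 1 fell, where 33.8% of all genes were called higher and 32.2% lower. The counts of the other lists are read against these shares, and a share near them is no result about a list. Egln3, an oxygen-dependent prolyl hydroxylase and itself a HIF target, averaged 4.19 ± 0.61 CPM in compressed and 0.251 ± 0.0969 CPM in control macrophages, a log2 fold change of 4.04 (SE 0.19, adjusted p = 2.52e-09 by edgeR). Egln1, the main prolyl hydroxylase for HIF-1α, averaged 101 ± 11.2 CPM in compressed and 53.5 ± 2.6 CPM in control macrophages (log2 fold change 0.92, adjusted p = 1.52e-07). Vhl, which marks hydroxylated HIF-1α for degradation, rose by 0.61 (adjusted p = 2.63e-07).

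Hif1a itself averaged 219.5 ± 33.8 CPM in compressed and 184 ± 4.47 CPM in control macrophages, a log2 fold change of 0.25 that was only just called (adjusted p = 0.0396 by edgeR). Compressed replicate 6 was at 152 CPM, and the call was lost in 17 of 20 alternatives, over which the adjusted p ran from 2.18e-09 to 0.12. Hif1an, the asparaginyl hydroxylase that blocks binding of HIF-1α to CBP and p300, was at 41.6 ± 7.36 CPM in compressed and 46.4 ± 2.26 CPM in control macrophages and was not called (log2 fold change -0.16, adjusted p = 0.261 by edgeR). Its value moved to -0.06 without compressed replicate 6 (adjusted p = 0.137), and it was called lower with the length trend removed. Arnt, the partner subunit of HIF-1α, was not called over all libraries (log2 fold change 0.15, adjusted p = 0.282 by edgeR), with compressed replicate 6 at 58.4 CPM, the lowest of the 12. Leaving that library out gave 0.25 and a call (adjusted p = 2.42e-07 by edgeR), and it was also called with the length trend removed.

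Of 20 HIF target genes all were measured, 18 rose by edgeR, 0 fell (0 also at an unadjusted p under 0.05 and by DESeq2) and 2 were not called. Their median log2 fold change was 0.93, where 24.5% of all genes tested were called higher and 21.9% lower. The list was chosen with earlier results of these data known. From the same libraries the study had already reported its hypoxia response gene set as upregulated, and Adm and Bnip3 as higher. The count is therefore a description and not independent of the data. P4ha2, a collagen prolyl hydroxylase, averaged 17.1 ± 1.04 CPM in compressed and 1.71 ± 0.47 CPM in control macrophages (log2 fold change 3.31, adjusted p = 8.31e-10 by edgeR). Ero1a, an oxidase of the endoplasmic reticulum, averaged 1607 ± 153 CPM in compressed and 335 ± 28.1 CPM in control macrophages (log2 fold change 2.26, adjusted p = 1.74e-10). At the other end of the called members was P4ha1, with a log2 fold change of 0.19 (adjusted p = 0.00262 by edgeR). Kdm3a, at 0.18, and Pfkfb4, at -0.06, were not called. Kdm3a was at 0.27 and called when compressed replicate 6 was left out (adjusted p = 5.24e-06 by edgeR), and Pfkfb4 was then at 0.00 (adjusted p = 0.932). The log2 fold change of Cited2, 0.63, was below the median of this list, and that of Cited1, 5.57, was above its highest member. The place of Cited1 follows from how it was chosen.

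Of 10 factors that CITED proteins are known to act with 5 were below the filter, including the AP-2 genes Tfap2a, Tfap2b and Tfap2c as well as Lhx2 and Ppara, and of the 5 measured 1 rose and 0 fell by edgeR (1 lower at an unadjusted p under 0.05, 0 by DESeq2), beside 24.5% and 21.9% of all genes. The lower count was 1 with library size alone and without compressed replicate 5, and 2 rose and 1 fell without compressed replicate 6, beside 33.8% and 32.2% of all genes. With 5 genes these counts are no result about the list. The gene that rose over all libraries was Egr2, a zinc finger factor of macrophage activation, with 34.5 ± 2.09 CPM in compressed and 12.8 ± 0.89 CPM in control macrophages (log2 fold change 1.43, adjusted p = 7.27e-10 by edgeR). The TGF-β effectors Smad2, Smad3 and Smad4 had log2 fold changes of -0.16, -0.15 and 0.08 with adjusted p of 0.0536, 0.374 and 0.25 by edgeR. In the fit that left out compressed replicate 6 they were at -0.11, -0.04 and 0.13, with adjusted p of 0.00226, 0.617 and 4.38e-04, so that Smad2 was called lower and Smad4 higher. Esr1, the estrogen receptor that CITED1 is known to coactivate, was at 0.351 ± 0.167 CPM in compressed and 0.302 ± 0.135 CPM in control macrophages.

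Of 18 factors that bind CBP and p300 16 were measured, 5 rose, 2 fell and 9 were not called, with a median log2 fold change of -0.02, beside 24.5% of all genes called higher and 21.9% lower. When compressed replicate 6 was left out, 7 rose and 5 fell, beside 33.8% and 32.2%. Cebpb, a leading factor of inflammatory macrophages, averaged 75.3 ± 31.4 CPM in compressed and 37.7 ± 4.49 CPM in control macrophages (log2 fold change 1.00, adjusted p = 0.00106 by edgeR), and 0.73 without compressed replicate 6. Foxo3, a stress-responsive factor, rose by 0.48 (adjusted p = 0.00438 by edgeR) with overlapping groups. Its level in compressed replicate 6, 50.9 CPM, was below every control, and the rise was 0.58 without that library. E2f1, which drives entry into the S phase, fell by 0.46 (adjusted p = 3.03e-06) and Trp53 fell by 0.30 (adjusted p = 1.63e-04). Rela, the NF-kB subunit that CBP and p300 coactivate, rose by 0.21 (adjusted p = 5.06e-04 by edgeR), with 75.2 ± 2.68 CPM in compressed and 64.9 ± 1.45 CPM in control macrophages. Myb and Ets1 were below the filter.

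In the CREB family, after which CBP is named, 3 of 8 measured genes rose, 1 fell and 4 were not called, beside 24.5% of all genes called higher and 21.9% lower, and without compressed replicate 6, 4 rose and 2 fell, beside 33.8% and 32.2%. Creb5 averaged 17.6 ± 2.72 CPM in compressed and 8.53 ± 0.66 CPM in control macrophages (log2 fold change 1.04, adjusted p = 1.97e-06 by edgeR). Crem, which encodes both activating and repressing forms, rose by 0.78 (adjusted p = 4.92e-06). Crtc2, a CREB coactivator, and Atf1 were just called at 0.14 (adjusted p = 0.0355) and -0.17 (adjusted p = 0.0415), calls that were lost in 18 and 12 of 20 alternatives, with adjusted p up to 0.248 and 0.0957. Creb1 itself was not called at -0.04 (adjusted p = 0.685 by edgeR) and turned to 0.02 when compressed replicate 6 was left out (adjusted p = 0.541).

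Genes that write, read or remove acetyl marks are read against the same shares of all genes, 24.5% higher and 21.9% lower, or 33.8% and 32.2% without compressed replicate 6. Of the 10 other histone acetyltransferases 1 rose, 3 fell and 6 were not called, with a median of -0.17, and 1 rose and 5 fell without compressed replicate 6. Hat1, which acetylates newly made histone H4, averaged 81.4 ± 14.3 CPM in compressed and 125 ± 2.67 CPM in control macrophages (log2 fold change -0.62, adjusted p = 1.03e-04 by edgeR), and Kat6b rose by 0.66 (adjusted p = 0.0217) with overlapping groups and lost its call in 3 of 20 alternatives. Of the 7 steroid receptor coactivators and partners, Prmt1, an arginine methyltransferase, fell by 0.39 (adjusted p = 8.70e-04 by edgeR) and the remaining 6 were not called, so that 0 rose (0 at an unadjusted p under 0.05 and by DESeq2), against 2 higher and 3 lower without compressed replicate 6 and 1 higher with the length trend removed. Of the 10 acetyl-lysine readers 0 rose and 4 fell, among them Brd8 at -0.34 (adjusted p = 0.0143) and Brd7 at -0.28 (adjusted p = 4.61e-05 by edgeR), with 0 higher also at an unadjusted p under 0.05 and by DESeq2. Among readers, 2 rose and 6 fell without compressed replicate 6, and 1 rose with the length trend removed. List medians include compressed replicate 6, in which long transcripts were low. Without it, log2 fold changes were 0.25 for Ncoa1, 0.02 for Ncoa2, -0.16 for Ncoa3 and 0.13 for Ncoa6. The remaining genes of that list were then at 0.01 for Med1, -0.11 for Carm1 and -0.48 for Prmt1.

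Of the 19 corepressors and deacetylases 4 rose, 4 fell and 11 were not called, with a median of -0.01, and 5 rose and 5 fell without compressed replicate 6. Hdac7, a class IIa deacetylase, averaged 1.91 ± 0.46 CPM in compressed and 0.397 ± 0.0552 CPM in control macrophages (log2 fold change 2.25, adjusted p = 2.92e-07 by edgeR). Sirt6 rose by 0.53 (adjusted p = 6.19e-07), whereas Hdac10 fell by 0.51 (adjusted p = 2.40e-06) and Sirt1 fell by 0.44 (adjusted p = 2.61e-05). Over all 9 lists, 98 genes were measured, each counted once, and 35 were higher and 15 lower. Of the 35 higher, 18 were HIF target genes. The other 8 lists held 78 measured genes, of which 17, or 21.8%, were higher and 15, or 19.2%, lower, near the shares of all genes. Leaving out compressed replicate 6 gave 47 higher and 27 lower of 99, beside 33.8% and 32.2% of all genes. Of the 47 higher, 19 were HIF target genes. The other 8 lists then held 28 higher and 27 lower of 79 measured genes, again near the shares of all genes.

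**Figure D5:**
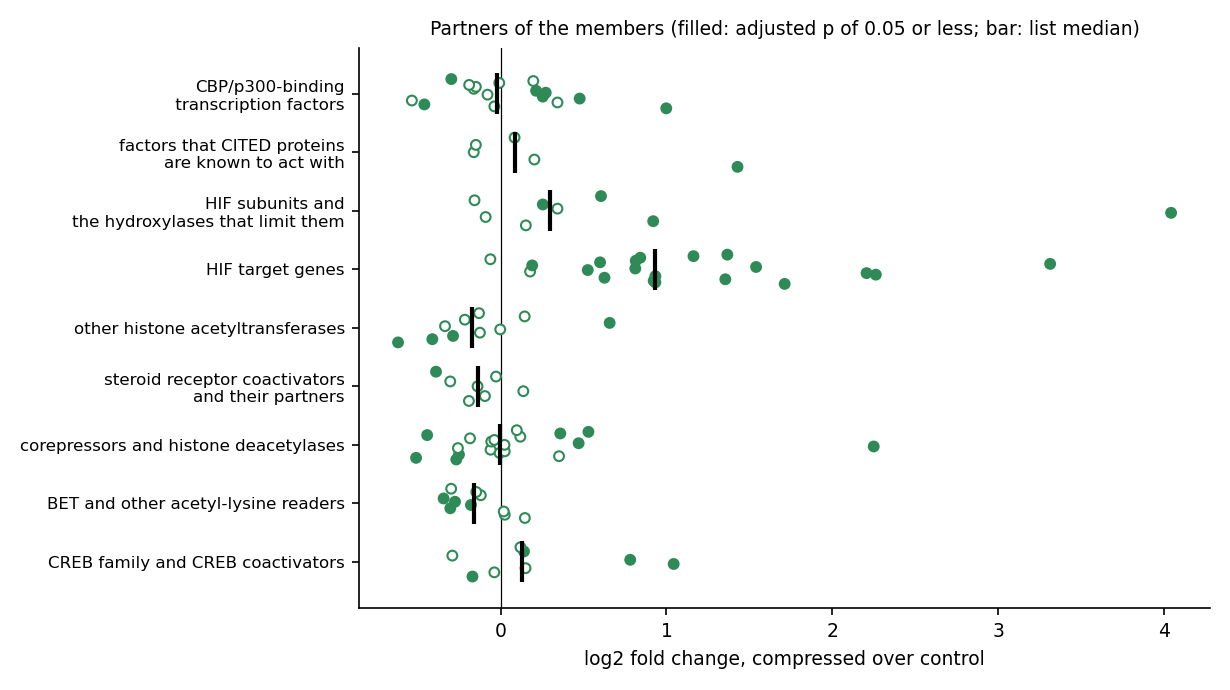
Log2 fold change, compressed over control (x axis), of each measured gene of 9 lists of partners of the members (points, filled for genes called by edgeR at an adjusted p of 0.05), with the list median as a bar. HIF target genes lie mostly to the right, with a median of 0.93, and the other acetyltransferases, coactivators and readers lie around or left of 0. All 12 libraries enter these values, among them compressed replicate 6, in which long transcripts were low.

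The genes most like each member were taken by the Pearson correlation of log2 CPM over the 12 libraries, which share the contrast between the groups and are given with no test. For Cited1 these were Rnf208 (r = 0.995), Urah, Slc39a2, Nudt18 and the glucose transporter gene Slc2a1 (r = 0.992), and after subtraction of group means r was 0.741 to 0.822. For Cited2 they were Gstt4 (r = 0.994, and 0.897 after group means), the MAP kinase phosphatase gene Dusp5, the chemokine receptor gene Ccr1, Mllt11 and the histone gene Hist1h2al. For Crebbp they included Ankrd11 (r = 0.947), Srcap, Rai1 and Vamp1, with r of 0.905 to 0.934 when compressed replicate 6 was left out. For Ep300 they were Fam193a (r = 0.999), Birc6, Srrm2, Lcor and Prrc2c, with r of 0.973 to 0.987 when compressed replicate 6 was left out. The genes most like Cited1 and Cited2 were higher in compressed macrophages, and those named for Crebbp and Ep300 had log2 fold changes of -0.165 to -0.0455.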

How the data were processed

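Libraries were made per the labels by directional preparation after mRNA enrichment. The authors used STAR 2.7.2 with a GENCODE annotation (their notes name GRCm39) and deposited raw counts per Ensembl gene, 1 column per library. How reads were counted, and with which strand setting, was not given in the sources used here. All 12 columns were mapped by label. Symbols, transcript lengths and positions came from GENCODE M21 on GRCm38, which named 52000 of 56941 IDs and 99.5% of counts, so positions are not those of the build used for alignment. Promoters came from RefSeq (GRCm38.p6), and all 5 members were matched.

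Counts were filtered by filterByExpr (minimum count 10, groups of 6), given TMM factors and compared, for 15001 genes and with condition as the only term, by the quasi-likelihood F test of edgeR. Genes with a Benjamini-Hochberg adjusted p of at most 0.05 were called. Standard errors are the size of the log2 fold change divided by the root of F. Log2 CPM used a prior count of 2. Ratios within a library were compared by a two-sided exact permutation test over 924 splits, or 462 without compressed replicate 6.

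Software was edgeR 4.0.16, DESeq2 1.42.0 and limma 3.58.1 under R 4.3.3, with SciPy 1.17.1, pandas 2.3.3, NumPy 2.4.6 and Matplotlib 3.10.9 under Python 3.11.15. The fit was tested on simulated data. The members, gene lists and rules for naming genes were chosen with earlier results of these data known. Named were all members, the called genes with the largest and smallest changes of each list together with genes of known role in it, genes below the filter, the nearest tested gene on each side, and the 5 most correlated genes of at least 1 CPM, of which a few are not reported here. The interval of the Cited1 count ratio and the floors cover counting error only, whereas the edgeR intervals include the spread between libraries. Without molecular identifiers a read is not an independent molecule. Between pairs of libraries of the same group the chi-square per gene averaged 3.58 to 16.9 among compressed replicates 1 to 5, 170 to 228 for pairs with compressed replicate 6 and 2.27 to 8.31 among controls. Alternatives were DESeq2, RLE factors, library size alone, no filter, a mean normalized count over 50, a replicate block, removal of each library's trend with transcript length (lowess span 0.3), a stricter adjusted p (0.01), each library left out in turn and, for ratios, raw counts.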

Additional observations from a re-analysis of the deposited data

Results flagged for a closer look

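Of 16 groups of values checked for the members and their ratios, 4 held a library far from the others by Dixon's criterion, which chance meets in about 1 in 20 groups. Ep300 in compressed replicate 6 was at 48.3 CPM, and the next compressed library was at 128 CPM. The log2 ratio of Crebbp to Ep300 in that library was -0.62, next to -1.66, and its log2 ratio of Cited2 to Crebbp plus Ep300 was 5.88, next to 4.57. Ep300 in control replicate 1 was at 164 CPM, next to 145 CPM, where the median gene of 8 kb or more was 0.13 higher on the log2 scale in that library than in the other controls and Ep300 was 0.24 higher. Compressed replicate 6 enters 3 of the 4 values, and they are not independent of each other.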

How the results depend on the processing

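Cited2 was called higher under all 20 alternatives, with a log2 fold change of 0.60 to 0.65 when a library was left out and 0.57 to 0.64 otherwise. The value of Cited1 was 5.38 to 5.77 when a library was left out. Crebbp was not called under any, at -0.16 to -0.02 when a library was left out and adjusted p of 0.297 to 0.799. Ep300 was not called under any either, at -0.16 to 0.09 when a library was left out, and turned direction only without compressed replicate 6 (0.095). The log2 difference of the Crebbp to Ep300 ratio turned to -0.12 without that library and ran from -0.12 to 0.12 over libraries left out, and that of the ratio of Cited2 to both ran from 0.54 to 0.88. The ratio of Cited2 to Cited4 gave no value because Cited4 was at 0.

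Genes called higher numbered 3326 to 5117 and lower 2999 to 4864 when a library was left out, against 3677 and 3283, and 4391 and 4074 with the length trend removed. List members called higher numbered 32 to 47 and lower 13 to 27, against 35 and 15. The lower count was 23 with library size alone, 25 with the length trend removed and 27 without compressed replicate 6. With library size alone 43.2% of calls were higher, against 52.8%, and the median of all genes was -0.04 against 0.02.

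Libraries of the same number shared no more than the number: after removal of group means they correlated at -0.115 to 0.04, and 0 of 12 correlated best with its own number. With replicate number as a block, 3299 genes were higher and 3094 lower, and the log2 fold changes were 5.55 for Cited1, 0.63 for Cited2 (adjusted p = 4.31e-05 by edgeR), -0.13 for Crebbp and -0.17 for Ep300. The block changed no call among the members.

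Depth limits what can be said of Cited1 in controls, where 1 to 6 counts a library were held, and of Cited4. The strand setting of the counting is unknown. The gene models listed as overlapping Crebbp and Ep300 lie on the same strand as these genes, so shared reads could not be told apart by strand under any setting. Each of these models drew at most 78 counts over all libraries.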
